A study of Homo sapiens with 14 samples.

Results

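The mitochondrial ribosomal proteins are encoded in the nucleus, made in the cytosol and imported into mitochondria. There they assemble, around ribosomal RNAs transcribed from mitochondrial DNA, into a large subunit, which forms peptide bonds, and a small subunit, which decodes the messenger RNA. The finished mitoribosome makes only the few inner membrane proteins of the respiratory chain and ATP synthase that mitochondrial DNA encodes, so its protein genes are usually expressed in all cells with mitochondria. Members were all rows of the count data whose symbol began with MRPL or MRPS followed by a digit, without pseudogenes. This gave 76 of 23106 symbols, 47 named for the large subunit (MRPL) and 29 for the small (MRPS), and 3 pseudogenes were left out. The symbols do not always match the place of the protein: MRPS30 and MRPS18A sit in the large subunit, and MRPS36 is now assigned to the 2-oxoglutarate dehydrogenase complex. By place there were 49 large and 26 small subunit members. MRPL57, a large subunit protein, is listed under its older symbol MRP63 and fell outside the rule.

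Polyadenylated RNA was sequenced from 2 human cancer lines, PC3 (derived from a prostate cancer metastasis) and HCT116 (from a colorectal carcinoma). Each was grown in normoxia (21% O2) or in hypoxia (0.5% O2) for 16 h, without any other treatment or genetic change in the libraries used here. PC3 had 4 libraries per condition and HCT116 had 3. Each line is a single established culture, so the line difference is one between 2 cultures and not between 2 tumour types. The total count was 71228454 to 123935458 per PC3 library and 133067391 to 150630928 per HCT116 library. Levels are given as CPM, counts divided by the effective size of the library, and a floor of 3 counts corresponded to 0.0201 to 0.0447 CPM.

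The lines carried partial signs of their labelled origin. The prostate factor HOXB13 had 64.9 to 92.9 CPM in the normoxic PC3 libraries and 9.59 to 10.4 CPM in those of HCT116, whereas KLK3, which encodes prostate-specific antigen, had 0 counts in all 14 libraries. The intestinal factor CDX2 had 19.1, 17.6 and 16.2 CPM in the normoxic HCT116 libraries and 0 in those of PC3, and the related CDX1 was at 0 in every library. The epithelial markers EPCAM, KRT8, KRT18 and CDH1 together reached 2823 to 3633 CPM in PC3 and 3124 to 3959 CPM in HCT116. These sums hide differences between the lines. In normoxia CDH1 was at 26.8 to 31.6 CPM in HCT116 and 309.1 to 362.4 CPM in PC3. KRT8 went the other way, at 1948 to 1996 CPM in HCT116 and 1234 to 1519 CPM in PC3. All 8 genes of a list of well-known hypoxia-induced genes rose in both lines.

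Of the 76 members, 75 were tested in every comparison. The exception was MRPS18B, 1 of the 3 paralogs of the small subunit protein S18, which had 0 counts in all 14 libraries. It lies in the major histocompatibility region of chromosome 6 (GRCh37, positions 30585617 to 30594172), and why no count was given was not tested. Its paralogs MRPS18A and MRPS18C were counted in every library. Members lay on 21 chromosomes. Their canonical transcripts had a median length of 1242 bases, against 2862 bases for all matched symbols. On either strand, 44 members overlapped another annotated gene, 18 of them a gene on the same strand, and the strand setting of the counting is not given in the sources used here.

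The members together took 0.428% to 0.558% of the counts of a PC3 library and 0.647% to 0.835% of those of an HCT116 library. Their summed level was 5070 ± 390 CPM (SD, n = 4) in normoxic PC3 and 7743 ± 692 CPM (SD, n = 3) in normoxic HCT116. In hypoxia the sums were 4981 ± 665 CPM in PC3 and 7118 ± 384 CPM in HCT116. Every HCT116 library lay above every PC3 library, while the oxygen conditions overlapped within both lines. In bulk RNA a change in the RNA of each cell and a change in the number of cells that express a gene cannot be told apart.

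Individual libraries stood apart within their groups. The normoxic PC3 sums were 4486, 5250, 5271 and 5272 CPM, and those in hypoxia 4250, 4970, 4845 and 5861 CPM, for replicates 1 to 4. Replicate 1 was thus the lowest in both conditions, and hypoxic replicate 4 the highest of the line. In HCT116 the normoxic sums were 7390, 7297 and 8540 CPM and the hypoxic sums 7560, 6867 and 6928 CPM, so that normoxic replicate 3 was the highest. Counts that rest on these libraries are given below with and without them.

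The summed counts of the 47 large subunit genes exceeded those of the 29 small subunit genes in every library. The sums grow with the number of genes, so a ratio above 1 does not by itself mean higher levels per gene. The ratio of large to small was 1.68 ± 0.01 (SD, n = 4) in normoxic PC3 and 1.85 ± 0.01 (SD, n = 3) in normoxic HCT116. All HCT116 libraries, from 1.84 to 1.89, were above all PC3 libraries, from 1.56 to 1.73. When members were assigned by place in the ribosome, the normoxic ratios were 1.86 ± 0.01 and 2.07 ± 0.02. In hypoxia the ratio was 1.65 ± 0.07 in PC3 and 1.86 ± 0.03 in HCT116, and in both lines the hypoxic libraries overlapped the normoxic ones. The PC3 value depended on 1 gene: without MRPS6 the ratio was 1.75 ± 0.01 in normoxia and 1.80 ± 0.04 in hypoxia. It was then higher in 3 of the 4 hypoxic libraries than in any normoxic one, and higher in hypoxia in all 4 pairs of libraries with the same number. Averaged per gene on the log2 scale, large over small was only 1.04 in normoxic PC3 and 1.14 in normoxic HCT116, without division by length. No test was made on these ratios.

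**Figure D1:**
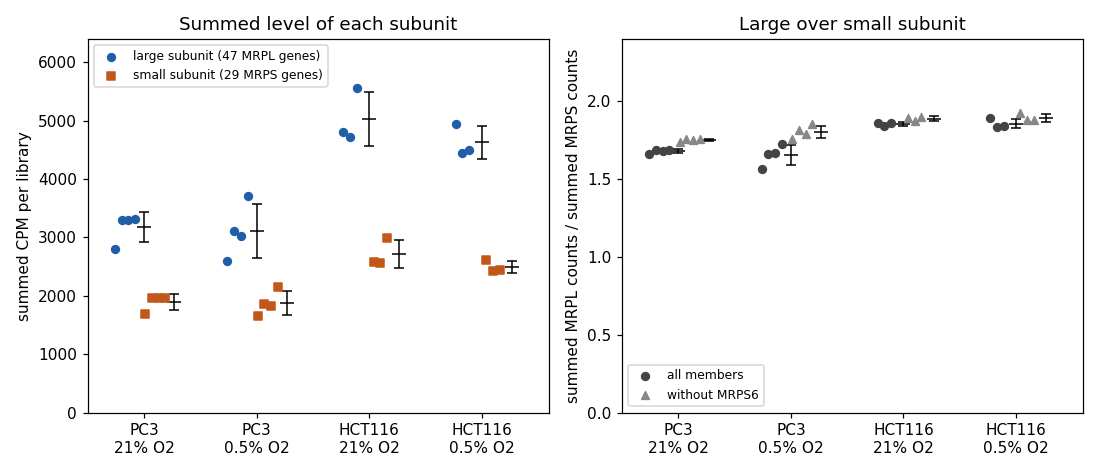
Summed CPM of the 47 MRPL and 29 MRPS genes (left) and the ratio of their summed counts (right) in each of the 14 libraries, by line and oxygen level. Points are libraries and black marks are the mean ± SD. The ratio of all members was 1.68 in normoxic PC3 and 1.85 in normoxic HCT116.

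Levels were compared between genes only after division by length (CPM per kilobase of the longest annotated transcript), because longer transcripts give more reads. On this scale the large subunit genes had a median level of 38.3 in normoxic PC3 and 64.1 in normoxic HCT116. Those of the small subunit had medians of 28.8 and 44.1. The spread within a subunit was far wider than the gap between the subunits. Large subunit levels ran from 3.53 to 111.6 CPM per kilobase in PC3 and from 7.57 to 254.3 in HCT116, and those of the small subunit from 6.42 to 106.1 and from 4.95 to 146.0.

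In PC3 the most abundant large subunit members per kilobase were MRPL3, which has a bacterial counterpart at the core of the subunit, at 111.6 ± 11.7, followed by MRPL4 at 100.9 ± 13.3 and MRPL12, a stalk protein that also binds the mitochondrial RNA polymerase, at 94.7 ± 9.56 (SD, n = 4). The ranges of these 3 overlapped. MRPS16 at 106.1 ± 4.66, MRPS35 at 95.4 ± 5.62 and MRPS34 at 75.8 ± 6.38 led the small subunit. In HCT116 the leading large subunit genes were MRPL12 at 254.3 ± 10.6, MRPL51 at 216.2 ± 18.3 and MRPL3 at 214.2 ± 13.6 (SD, n = 3). MRPL12 lay above the others in every library, and MRPL51 and MRPL3 did not differ beyond their spread. The small subunit was led there by MRPS34 at 146.0 ± 5.59, MRPS7 at 94.1 ± 8.46 and MRPS35 at 83.6 ± 11.5. The order depended on the transcript length used. With canonical transcripts MRPL43 led the large subunit in PC3 at 143.0 CPM per kilobase, and with median transcripts MRPL3 led it in HCT116 at 497.1 and MRPS23 the small subunit at 421.5.

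Within the large subunit the lowest levels per kilobase were those of MRPL46, at 3.53 in PC3 and 7.57 in HCT116, and MRPL42, at 7.49 and 11.9. Within the small subunit MRPS25 was the lowest tested member, at 6.42 and 4.95. MRPL22 at 8.18, MRPS14 at 6.93 and MRPS11 at 7.01 completed the lowest 3 of each subunit in PC3. In HCT116 these were MRPL50 at 14.6, MRPS11 at 12.4 and MRPS5 at 9.86. The longest transcript decides some of these places. That of MRPL46 has 5561 bases, and its median and canonical lengths are both 986. That of MRPL42 has 15560 bases, the median of its transcripts 887 and its canonical transcript 15557. With canonical transcripts the lowest large subunit values were 7.49 in PC3 and 11.9 in HCT116. Across the 75 members, Spearman's rho between the levels per kilobase of both lines was 0.81, a description over genes that share their lengths.

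The comparison of 0.5% with 21% O2 in PC3 asked how the members responded to hypoxia in that line. With the replicate number as a block, further members were called lower, as given below. Without the block a single member rose, and none of the others passed the test in either direction. This was MRPS6, a small subunit protein with a bacterial counterpart. Its level was 74.0, 78.9, 75.1 and 80.3 CPM in the normoxic libraries and 180.6, 156.2, 127.6 and 146.5 CPM in the hypoxic ones. All hypoxic libraries were above all normoxic ones, and the log2 fold change was 0.99 (SE 0.10, adjusted p = 7.19e-04, edgeR's quasi-likelihood test). Among all 14309 genes tested 6.03% were called higher and 5.29% lower, against 1 (MRPS6) and 0 of the 75 members. At an unadjusted p under 0.05, 2 members were higher and 4 lower, against 13.6% and 14.1% of all genes. DESeq2 called 0 members lower, against 8.45% of all genes.

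MRPS6 lies on the plus strand of chromosome 21 (GRCh37, 35445524 to 35515334) and shares this stretch with SLC5A3, which encodes a sodium-coupled inositol transporter and runs in the same direction. SLC5A3 rose more than MRPS6 did. Its level was 114.9, 111.8, 96.7 and 108.1 CPM in normoxia and 555.2, 448.6, 329.1 and 321.9 CPM in hypoxia in PC3, with no overlap, and the log2 fold change was 1.95 (SE 0.18, adjusted p = 3.56e-04, edgeR). The hypoxic library with the highest SLC5A3, replicate 1, also had the highest MRPS6. In HCT116 SLC5A3 was far lower, 33.7 ± 2.02 CPM in normoxia and 44.1 ± 0.83 CPM in hypoxia (log2 fold change 0.40, adjusted p = 0.0014, edgeR). There MRPS6 had 43.9, 46.3 and 57.5 CPM in normoxia and 47.5, 52.2 and 48.9 CPM in hypoxia, and these groups overlapped (log2 fold change 0.03, SE 0.10). The part of reads from shared sequence in the rise of MRPS6 was not tested, and SLC5A3 was chosen for display after its values were seen.

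**Figure D2:**
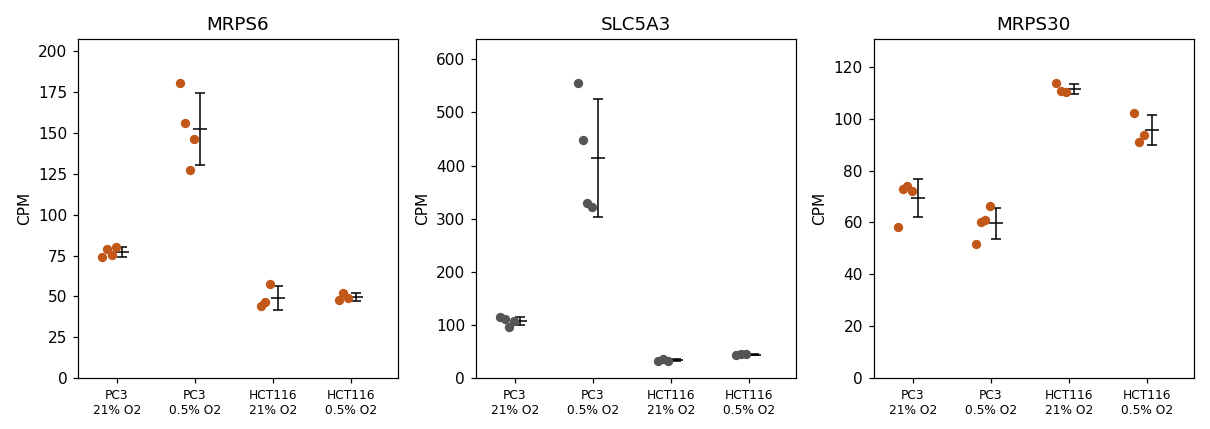
CPM of MRPS6, of SLC5A3, which overlaps it on the same strand, and of MRPS30 for comparison, in each of the 14 libraries by line and oxygen level. Points are libraries, black marks the mean ± SD, and each axis starts at 0. MRPS6 and SLC5A3 were higher in all 4 hypoxic PC3 libraries, while MRPS30 shows the size of the smaller shifts.

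The remaining 74 members of PC3 lay between -0.31 and 0.25 on the log2 scale. The median of all members was -0.04 (large subunit -0.01, small subunit -0.06), against 0.00 for all genes, and 51 of 75 had a log2 fold change below 0. The sign of this median turned on 1 library: it was 0.03 without hypoxic replicate 1 and -0.13 without hypoxic replicate 4. The next highest values were those of MRPS24 (0.25, SE 0.13, adjusted p = 0.243, edgeR) and MRPL14 (0.24, SE 0.09, adjusted p = 0.143, edgeR). MRPS24 had 69.1, 78.8, 72.2 and 76.6 CPM in normoxia and 77.7, 86.0, 73.0 and 114.7 CPM in hypoxia. MRPL14 had 59.7, 61.9, 65.2 and 60.4 CPM in normoxia and 64.2, 71.0, 67.4 and 87.7 CPM in hypoxia. For both, hypoxic replicate 4 was highest by a wide margin and the conditions overlapped, while every hypoxic library was above the normoxic library with the same number.

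At the lower end stood MRPL30 (-0.31, SE 0.11), MRPS31 (-0.26, SE 0.12) and MRPS30 (-0.21, SE 0.09). MRPL30 had 92.0, 117.8, 117.5 and 125.6 CPM in normoxia and 74.5, 103.3, 95.3 and 90.1 CPM in hypoxia. MRPS31, a protein found only in mitochondrial ribosomes, had 13.2, 16.2, 15.1 and 16.4 CPM in normoxia and 9.87, 14.5, 13.5 and 12.9 CPM in hypoxia. MRPS30 had 58.3, 72.9, 74.1 and 72.1 CPM in normoxia and 51.7, 60.0, 61.0 and 66.2 CPM in hypoxia. In each of these genes every hypoxic library was below the normoxic library with the same number, but normoxic replicate 1 was low enough for the conditions to overlap.

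The replicate numbers pair the PC3 libraries, and with the number as a block 1 member was higher and 8 were lower, against 14.9% and 13.6% of all genes under the same fit. Those called lower with the block were MRPL15, MRPL16 and MRPL30 of the large subunit and MRPS9, MRPS23, MRPS30, MRPS31 and MRPS35 named for the small. MRPL30 had the largest change of the named members there (adjusted p = 0.00784, edgeR with the block). With both libraries of replicate 1 left out, 1 member was higher and 1 (MRPL30) lower, against 7.04% and 5.42% of all genes. Scaling to total counts alone, which shifts the median of all genes to -0.10, gave 1 higher and 5 lower, against 3.93% and 12.1% of all genes.

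In HCT116 the same comparison gave no rise and 9 falls: MRPL42, MRPL3, MRPL20 and MRPL34 named for the large subunit, and MRPS18C, MRPS10, MRPS17, MRPS30 and MRPS9 for the small. The falls were shallow, from 12.5% (MRPS9) to 23.0% (MRPL42). Among all 14120 genes tested 11.3% were called lower and 14.6% higher, so the 9 of 75 members called lower were near the background share and the 0 called higher below it. At an unadjusted p under 0.05, edgeR had 2 members higher and 21 lower, against 20.8% and 17.9% of all genes. DESeq2 called 1 higher (MRPL17) and 16 lower, against 15.0% and 13.99% of all genes. The median of the members was -0.10 (large -0.11, small -0.09), against 0.00 for all genes, and 55 of 75 were below 0. The 3 hypoxic libraries were all below the 3 normoxic ones in 25 members, against 22.2% of all genes, and all above them in 1, against 20.3%.

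MRPL42, a protein without a bacterial counterpart, had 168.2, 167.1 and 220.7 CPM in normoxia and 154.4, 132.6 and 136.2 CPM in hypoxia (log2 fold change -0.38, SE 0.11, adjusted p = 0.0279, edgeR). MRPS18C had 42.6, 44.6 and 55.7 CPM in normoxia and 39.5, 32.0 and 38.1 CPM in hypoxia (-0.37, SE 0.11, adjusted p = 0.0314, edgeR). In both the conditions did not overlap, and normoxic replicate 3 was the highest library. MRPL50 had a similar difference without passing the test: 43.8, 42.1 and 60.1 CPM in normoxia and 41.9, 33.3 and 37.2 CPM in hypoxia (-0.36, SE 0.13, adjusted p = 0.0638, edgeR).

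MRPL3 had 357.6, 348.0 and 392.1 CPM in normoxia and 307.6, 268.5 and 274.8 CPM in hypoxia, with no overlap (-0.35, SE 0.08, adjusted p = 0.00797, edgeR). MRPS10, whose bacterial counterpart sits in the head of the small subunit, had 116.1, 119.7 and 132.1 CPM in normoxia and 103.5, 95.9 and 96.1 CPM in hypoxia, also without overlap (-0.30, SE 0.07, adjusted p = 0.0123, edgeR). The calls of MRPL3 and MRPS10 held whichever 1 of the 6 libraries was left out, and those of the other 7 did not. MRPS17 (-0.27), MRPL20 (-0.27), MRPL34 (-0.26), MRPS30 (-0.21) and MRPS9 (-0.19) had adjusted p between 0.0313 and 0.0414. MRPS30 was below 0 in both lines, and in HCT116 it was at 111.6 ± 1.94 CPM in normoxia and 95.6 ± 5.77 CPM in hypoxia.

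The highest values in HCT116 were those of MRPL17 (0.26, SE 0.09, adjusted p = 0.057, edgeR), MRPL24 (0.19) and MRPL23 (0.14). MRPL17 had 90.6, 89.1 and 109.5 CPM in normoxia and 123.1, 112.6 and 107.2 CPM in hypoxia. MRPL24, which lies near the exit of the peptide tunnel, had 82.0, 77.8 and 82.2 CPM in normoxia and 98.2, 90.7 and 83.5 CPM in hypoxia. MRPL23 had 58.7, 58.2 and 59.8 CPM in normoxia and 72.6, 60.7 and 59.1 CPM in hypoxia. The conditions overlapped in MRPL17 and MRPL23 and were apart in MRPL24, and hypoxic replicate 1 was the highest library of all 3.

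How many members were called in HCT116 turned on single libraries. Without normoxic replicate 3, 4 members were higher (MRPL11, MRPL14, MRPL17 and MRPL54) and 4 lower, against 12.97% and 10.4% of all genes. Without hypoxic replicate 2, 2 were lower, against 7.51% of all genes. Without hypoxic replicate 3, 1 was higher and 2 lower, against 11.2% and 7.48%. Without hypoxic replicate 1, 14 were lower, against 9.70%. The median of the members ran from -0.16 without hypoxic replicate 1 to -0.04 without normoxic replicate 3. In a fit over both lines together MRPS18C alone was called, as lower, where 6.05% of all genes were called higher and 5.13% lower. Scaling to total counts alone, which shifts the median of all genes to -0.09, gave 31 lower, against 22.3% of all genes. With offsets for transcript length and GC content 1 member was higher and 15 lower, against 12.3% and 13.55% of all genes. Of the 9 falls 6 were shared, MRPS18C, MRPS9 and MRPS30 were no longer called, and the value of MRPS30 was then -0.03.

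**Figure D3:**
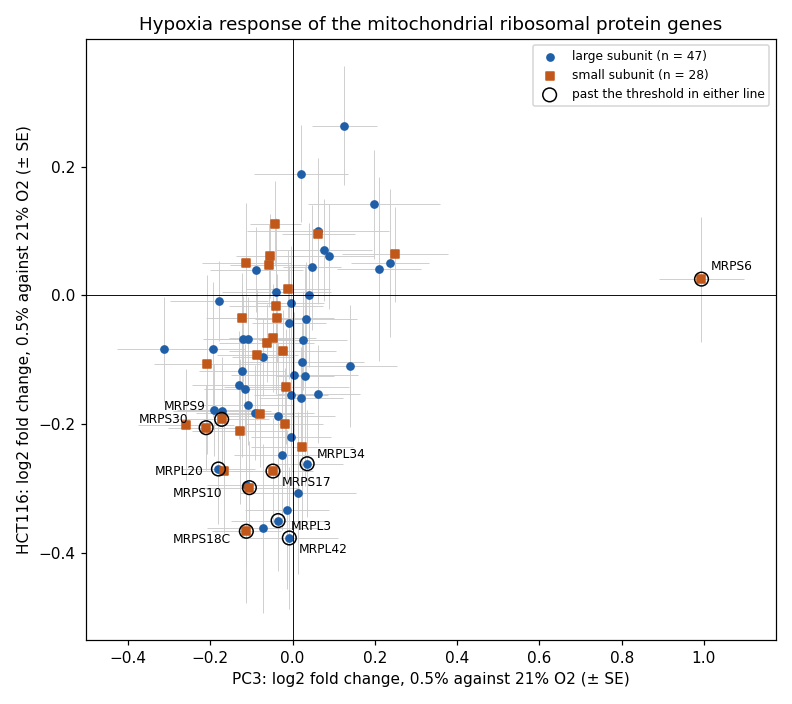
Log2 fold change of each of the 75 tested members in hypoxia against normoxia, PC3 on the horizontal and HCT116 on the vertical axis, with standard errors as grey lines. Blue circles are large subunit and orange squares small subunit genes by symbol, and open rings mark the 10 members past the threshold in either line. MRPS6 stands alone at 0.99 in PC3, and most other members lie below 0 in both lines.

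Set side by side, 44 of the 75 members had a log2 fold change below 0 in both lines, 13 were above 0 in both and 18 had opposite signs. Among the 13090 genes tested in both lines 33.0% were below 0 in both, against 58.7% of the members. These shares were not recomputed with a library left out. The members' median was 0.03 in PC3 without hypoxic replicate 1 and -0.04 in HCT116 without normoxic replicate 3. Across the members Pearson's r between the lines was 0.35, and 0.41 without MRPS6, as a description over genes that share the libraries. The response to hypoxia was also compared between the lines, and MRPS6 was the only member past the threshold. Its interaction was -0.98 (HCT116 minus PC3, SE 0.15, adjusted p = 0.00345, edgeR) and that of SLC5A3 -1.55 (adjusted p = 9.77e-04, edgeR). Among 15493 genes, 1.31% had a higher and 1.01% a lower response in HCT116. At an unadjusted p under 0.05 edgeR had 0 members higher and 2 lower, against 8.35% and 7.67% of all genes. DESeq2 called MRPS6 alone, where it called 3.25% of all genes higher and 3.03% lower.

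MRPS18A and MRPS36 were followed because their symbols do not give their place. MRPS18A was at 0.06 in PC3 and 0.10 in HCT116, MRPS36 at -0.02 and -0.20, and neither passed the test. With offsets for length and GC content both signs in PC3 were the opposite. Scaling to total counts also put MRPS18A below 0, a setting that moves all genes down alike. MRP63, the older symbol of MRPL57, was at -0.11 in PC3 and -0.20 in HCT116 without passing the test.

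Other genes of mitochondrial translation were read from lists drawn up for the comparison. Of 26 tested genes for mitoribosome assembly, 5 fell in PC3, and 5 fell and 2 rose in HCT116. The shares of all genes to set beside the counts of these lists are 5.29% lower in PC3, and 11.3% lower and 14.6% higher in HCT116. FASTKD2, which binds the large subunit RNA, fell in both lines, with log2 fold changes of -0.28 in PC3 and -0.47 in HCT116. So did MTERF (-0.29 and -0.40), which is counted in this list although its product ends or regulates mitochondrial transcription. WBSCR16, a large subunit assembly factor, rose in HCT116 (0.28) with the RNA-processing gene YBEY (0.22). Of 20 translation factors and partners, 2 fell in PC3 and 7 in HCT116. The initiation factor gene MTIF2 fell in both (-0.38 and -0.29), the elongation factor gene GFM1 fell in PC3 (-0.22), and SLIRP (-0.46), which stabilises mitochondrial messenger RNA, and the release factor gene MTRF1 (-0.45) fell in HCT116. Whether these responses differ between the lines was tested gene by gene, and no gene of either list passed (edgeR). Of all genes, 1.31% passed with a higher and 1.01% with a lower response in HCT116. Unadjusted p was under 0.05 for 2 assembly genes (higher) and 2 translation genes (lower), against 8.35% and 7.67% of all genes.

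The medians of these lists and of the cytosolic ribosome and the respiratory chain can be set beside those of the members given above. In PC3 the median log2 fold change was -0.18 for assembly, -0.12 for translation factors, 0.14 for 78 respiratory chain genes and 0.16 for 79 cytosolic ribosomal protein genes. In HCT116 these medians were -0.08, -0.12, 0.00 and 0.11. Of the cytosolic ribosomal protein genes, 11 of 80 rose in HCT116, a share of 13.8% beside the 14.6% of all genes, and 0 passed in PC3, where 0 also had an unadjusted p under 0.05 (edgeR). Of the 78 respiratory chain genes, 1 rose in PC3, and 5 rose and 1 fell in HCT116. The shares that rose, 1.28% and 6.41%, lay below those of all genes (6.03% and 14.6%). Among 9 tested regulators of mitochondrial genes MXI1, a MYC antagonist, rose in both lines (0.87 in PC3 and 0.83 in HCT116), and MYC in HCT116 (0.23).

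**Figure D4:**
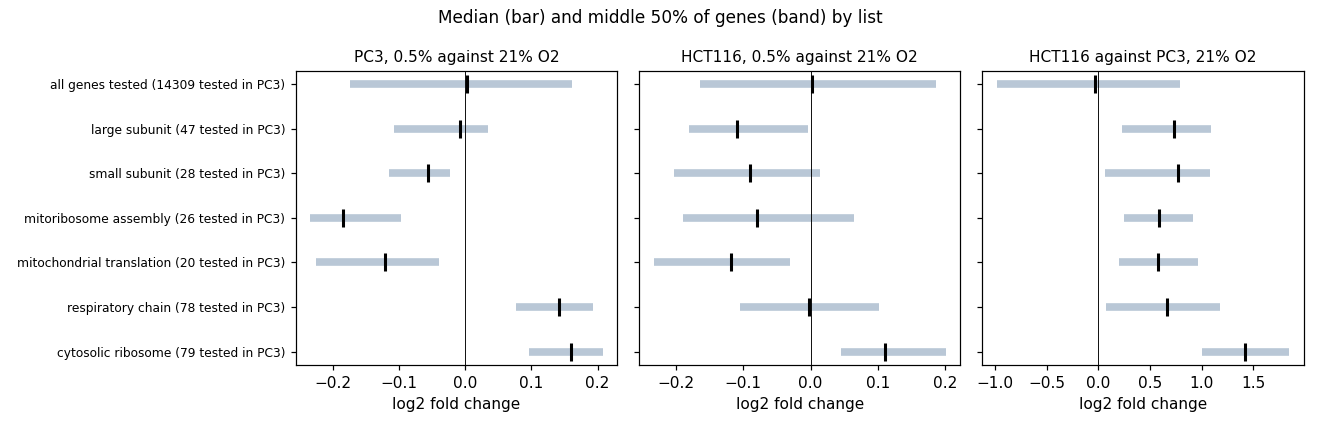
Median (black mark) and middle 50% of genes (band) of the log2 fold changes of 7 gene lists in hypoxia in each line and between the lines in normoxia. Horizontal axes differ between panels. Both subunits lie at or below 0 in hypoxia, the cytosolic ribosome above it, and all 6 lists lie above all genes in the line comparison.

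The promoters were searched for letters bound by known regulators of nuclear genes of mitochondria. Promoter sequences (RefSeq, GRCh38.p14, 250 bases before to 50 after the start) were found for 67 of the 76 members. An ETS core (CCGGAAG on either strand), bound by GABP and other ETS factors, was in 28 (41.8%) of them, against 10.3% of all 35116 promoters and 17.3% of the 10933 promoters of genes tested here. A YY1 site (AAGATGGCG) was in 13 (19.4%), against 1.75% of all promoters and 3.59% of tested ones, and an NRF1 site (TGCGCATGC) in 5 (7.46%), against 1.56% and 2.53%. The ETS core was in 16 of 40 large and 12 of 27 small subunit promoters. The E-box CACGTG was in 6 (8.96%), against 7.26% of all and 9.74% of tested promoters. Of the cores of the hypoxia response element, ACGTG was in 19 (28.4%), against 21.4% and 25.7%, and GCGTG in 38 (56.7%), against 36.5% and 48.8%. The shares of these 3 lay closer to those of the tested promoters than the ETS and YY1 shares did, and ACGTG is part of the E-box letters. Such matches describe the letters only.

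The promoters of 3 members that fell in HCT116 and of MRPS6, which rose in PC3, are shown to let these letters be seen beside the start. The 3 all hold an ETS core, but only 4 of the 9 members that fell did, and MRPL34, MRPS17 and MRPS9 held none of the ETS, YY1 or NRF1 letters. Each stretch runs from 120 bases before the start to 30 after it, 5′ to 3′ on the strand of the gene, with ETS and YY1 letters in capitals. The start is the base at position 0, and positions give the first base of a match. MRPS10 (chr6:42217832-42217981, minus strand) holds an ETS core at -22 and the YY1 letters at 9. MRPL3 (chr3:131502942-131503091, minus strand) holds an ETS core at -32, and MRPL20 (chr1:1407264-1407413, minus strand) holds it at -44 and -21. MRPS6 (chr21:34073458-34073607, plus strand) holds none of the ETS, YY1 or NRF1 letters and has a GC content of 81.3%, against 58%, 58% and 68% for the others. Within these stretches GCGTG, on either strand, is in MRPS6 at -63 and in MRPL20 at -113.
MRPS10: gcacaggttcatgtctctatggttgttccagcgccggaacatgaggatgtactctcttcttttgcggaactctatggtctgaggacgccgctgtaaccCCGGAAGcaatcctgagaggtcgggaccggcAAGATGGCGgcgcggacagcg
MRPL3: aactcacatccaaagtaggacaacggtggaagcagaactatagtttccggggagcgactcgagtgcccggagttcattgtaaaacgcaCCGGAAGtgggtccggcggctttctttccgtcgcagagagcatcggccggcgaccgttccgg
MRPL20: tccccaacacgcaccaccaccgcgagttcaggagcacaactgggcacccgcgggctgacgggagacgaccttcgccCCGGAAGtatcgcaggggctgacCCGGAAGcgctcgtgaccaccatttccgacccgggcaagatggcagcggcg
MRPS6: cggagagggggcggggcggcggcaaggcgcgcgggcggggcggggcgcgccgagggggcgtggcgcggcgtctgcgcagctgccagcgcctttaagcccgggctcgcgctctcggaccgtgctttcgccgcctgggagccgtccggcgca

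The lines differed far more from each other than either did between oxygen levels. In normoxia 53 of 75 members were higher in HCT116 than in PC3 and 7 lower, against 40.5% and 42.9% of all 15206 genes tested (edgeR). The median log2 difference was 0.74 for the members (large 0.74, small 0.77) and -0.03 for all genes. Without PC3 replicate 1 and HCT116 replicate 3, which stood apart, the median of the members was 0.60. More members were then called lower, and their number is given in the last section. By symbol, 34 large subunit members were higher and 1 lower, and 19 small subunit members were higher and 6 lower. The line coincides with the order in which the libraries are numbered, so the 2 cannot be told apart. The log2 difference was 1 or more in 24 of the members called higher and -1 or less in 1 of those called lower, against 19.9% and 24.4% of all genes.

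MRPL1, part of the mobile stalk that lines the exit of transfer RNA, had 16.7, 19.9, 21.2 and 20.4 CPM in normoxic PC3 and 82.7, 79.5 and 116.3 CPM in normoxic HCT116. MRPL54 had 9.01, 10.0, 9.99 and 10.3 CPM against 37.8, 37.3 and 57.4 CPM. MRPS23 had 56.0, 72.8, 72.7 and 72.0 CPM against 229.3, 239.1 and 344.8 CPM. These 3 genes did not overlap between the lines, HCT116 replicate 3 was the highest library in each, and their log2 differences were 2.27 (SE 0.14), 2.19 (SE 0.15) and 2.01 (SE 0.15). The adjusted p of MRPL1 was 2.05e-07 (edgeR).

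The other leading large subunit genes were MRPL41 (1.80), MRPL45 (1.80), whose product holds the ribosome at the inner membrane, and MRPL51 (1.70). The small subunit followed with MRPS22 (1.55), MRPS21 (1.45) and MRPS27 (1.43), a pentatricopeptide repeat protein. MRPS36, small subunit by symbol only, was higher by 1.32. Of the S18 paralogs, MRPS18C was higher by 1.27 and MRPS18A by 0.44. MRPS30 was higher by 0.71, and MRP63 by 0.57.

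MRPS16 went furthest in the other direction. It had 267.2, 274.0, 290.5 and 263.2 CPM in normoxic PC3 and 115.3, 115.2 and 115.3 CPM in normoxic HCT116 (log2 difference -1.23, SE 0.06, adjusted p = 3.66e-08, edgeR). MRPS6 was lower as well, at the normoxic values given above (-0.63, SE 0.09), as was its neighbour SLC5A3 (-1.66). MRPL55 had 31.2, 36.6, 36.7 and 31.4 CPM in PC3 and 25.0, 22.7 and 24.0 CPM in HCT116 (-0.49, SE 0.08). None of these 3 members overlapped between the lines. MRPS17 (-0.43), MRPS25 (-0.35), MRPS5 (-0.30) and MRPS28 (-0.14) completed the 7, and MRPS5 overlapped between the lines. With offsets for transcript length and GC content, under which the median of all genes was 0.30, MRPS25 and MRPS5 turned to 0.49 and 0.42, MRPS6 and MRPS17 no longer passed, and 65 members were higher and 3 lower, against 51.4% and 33.4% of all genes.

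**Figure D5:**
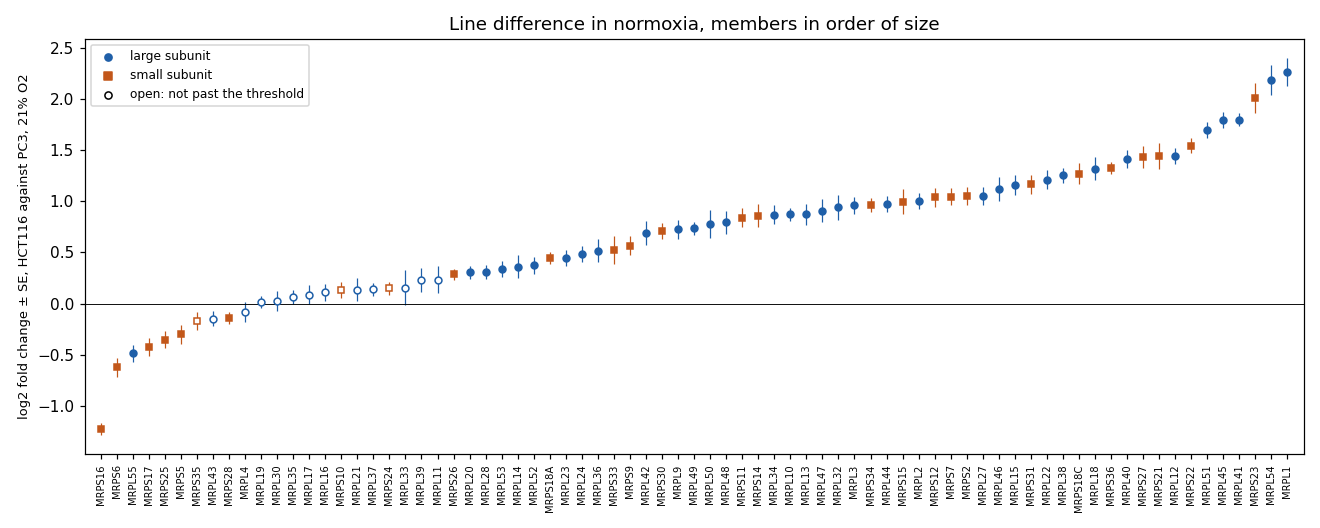
Log2 fold change (± SE) of HCT116 against PC3 in normoxia for the 75 tested members, in order of size. Blue circles are large subunit and orange squares small subunit genes, and open symbols did not pass the threshold. The order runs from MRPS16 at -1.23 to MRPL1 at 2.27, and 65 members lie above 0.

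Most genes of 4 related lists were higher in HCT116 too. Of 81 cytosolic ribosomal protein genes, 73 were higher in HCT116 and 2 lower, with a median log2 difference of 1.42. Of 78 respiratory chain genes, 51 were higher and 7 lower (median 0.67). Of the assembly genes 19 of 26 were higher, led by METTL15 (2.03), which modifies the small subunit RNA, and RNMTL1 (1.46), which methylates the large subunit RNA. Of the translation factors 15 of 20 were higher and 2 lower, with MRRF (1.82), a ribosome recycling factor, and C1QBP (1.74) at the top. Of the 9 tested regulators 4 were higher, a share of 44.4% against 40.5% of all genes. These were MXI1 (1.17), NRF1 (1.06), MYC (0.58) and GABPB1 (0.40), whereas ESRRA was lower (-0.50) and 4 did not pass.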

How the data were processed

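The 14 libraries of polyadenylated RNA were mapped by the authors with HISAT2 to GRCh37 after removal of spike-in reads. They used HTSeq (intersection-strict) with RefSeq genes and deposited raw counts of 23106 symbols per library. The strand setting and RefSeq release are not given in the sources used here. Spike-in reads were not used here, so all levels are relative to the library. Total counts were 71228454 to 150630928. Replicates differed by a chi-square of 12.5 to 268.3 per gene and were kept as separate samples. The study's methods call them biological replicates, and p-values measure the spread between these samples. Floors cover counting error only.

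The counts were tested with edgeR 4.0.16 (R 4.3.3): filterByExpr, TMM scaling, the quasi-likelihood test and Benjamini-Hochberg adjustment over all genes, with a threshold of 0.05. Each line was fitted alone for hypoxia, all 14 libraries for the interaction, and the 7 normoxic libraries for the line comparison. Standard errors were derived from the unshrunk change and its F statistic. CPM used TMM over all libraries. DESeq2 1.42.0, other scalings and filters, offsets for length and GC content, and leaving out libraries were alternatives. The fits were tested on simulated data with 200 changed genes. Positions and lengths are from GENCODE v44 lifted to GRCh37, which matched 21589 symbols.

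Replicate numbers pair the PC3 libraries: deviations of same-numbered libraries from their condition means correlated across genes at 0.675, 0.267, 0.140 and 0.282, each above 0.1. This pairing comes from the data, not from the labels. Some libraries with different numbers also exceeded 0.1. These were normoxic replicate 2 with hypoxic replicates 3 (0.136) and 4 (0.111), and normoxic replicate 4 with hypoxic replicate 2 (0.198). The other combinations of different numbers in PC3 ran from -0.420 to 0.078.

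The members, the lists, the tests and the alternatives were chosen with earlier results of these data known. Named were, per comparison, the 5 largest called rises and falls of each subunit, the 3 most and least abundant members per kilobase of each subunit and line, members not tested, MRPS18A, MRPS18C, MRPS30, MRPS36 and MRPL57, and up to 4 called genes per list. Values in every library are given for the 3 largest changes each way, and for MRPL3, MRPS10 and SLC5A3, which were added after their values were seen. Lists of genes of fibroblasts and blood cells summed to 6.87 to 12.7 CPM and 0.0603 to 2.71 CPM per library. Among 9 tested genes of mitochondrial DNA upkeep, 1 rose and 2 fell in HCT116, and 6 were higher and 2 lower between the lines. Of 7 mitoribosomal genes with other symbols, 1 fell in HCT116, and 4 were higher and 1 lower between the lines. The shares of all genes to set beside both lists are 14.6% higher and 11.3% lower in HCT116 hypoxia. Between the lines they are 40.5% higher and 42.9% lower.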

Additional observations from a re-analysis of the deposited data

Results flagged for a closer look

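Among 74 groups of 4 PC3 libraries looked at (37 measures, namely levels of named genes, sums and the subunit ratio, in both conditions), 8 had a library far from the other 3, where chance flags about 1 in 20, or 3.7. Of these, 7 were normoxic replicate 1, always as the lowest library. The summed level of the members was 4486 CPM there, against 5250 to 5272 CPM in the other 3. MRPL42 was at 96.4 CPM (others 122.3 to 124.1), MRPL3 at 161.0 (198.1 to 204.1), MRPL34 at 37.3 (45.0 to 45.9), MRPS23 at 56.0 (72.0 to 72.8), MRPS30 at 58.3 (72.1 to 74.1) and MRPS25 at 44.5 CPM (54.3 to 55.9). In hypoxia MRPS25 in replicate 1 was at 44.7 CPM, against 52.1 to 52.2 CPM. The measures share a library and are not independent.

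The response of MRPS6 to hypoxia differed between the lines by -0.98 on the log2 scale (HCT116 minus PC3), in the test of the difference itself.

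The 3 pseudogenes, which entered no count of members, had counts in every library: at least 21 for MRPL42P5, 142 for MRPL45P2 and 69 for MRPS31P5. At 4.84 CPM or less on average in each group, they lay well below the genes whose symbols they share.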

How the results depend on the processing

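The single call of MRPS6 in PC3 and in the interaction was kept under every alternative run, and 53 to 55 members were higher in HCT116 than in PC3 when any 1 library was left out. The small counts in hypoxia were not stable, and the cause was not tested. Leaving out PC3 replicate 1 as a pair of libraries, leaving out normoxic PC3 replicate 1 with HCT116 replicate 3, comparing the lines in hypoxia, requiring a minimum log2 difference, leaving MRPS6 out of the subunit ratio and using canonical transcripts were chosen after seeing the data.

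In PC3 the members lower, 0 as reported, were 5 with total-count scaling, 8 with the replicate block, 12 (with 2 higher) with the block and offsets for length and GC content (13.79% lower and 16.65% higher of all genes), where MRPS23, MRPS30 and MRPS35 were not called, and 1 without both libraries of replicate 1. They ranged from 0 to 3 when 1 library was left out (1 without normoxic replicate 1, 3 without hypoxic replicate 4), and 1 was higher throughout. In HCT116 the members lower, 9 as reported, were 31 with total-count scaling (which called 22.3% of all genes lower and moved their median to -0.09, with the members' median then -0.10 relative to it, against -0.11 as reported), 16 with DESeq2, 1 in a fit over both lines, 15 with the offsets and 23 with the offsets and block, and from 2 to 14 when 1 library was left out. Members higher were 1 with upper-quartile scaling, DESeq2, no filter, the offsets, or the offsets and block, and 0 to 4 when 1 library was left out. Same-numbered HCT116 libraries correlated at 0.091, 0.138 and 0.043, and those with different numbers from -0.094 to 0.002. The same-numbered values were the higher ones but not all above 0.1, so the numbers were not taken as pairs. The block left 9 members lower in HCT116, 7 of them shared. The block changed no call of a member in the interaction.

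Between the lines 3 members were lower with the offsets (33.4% of all genes). With PC3 replicate 1 and HCT116 replicate 3 left out 12 were lower (43.5% of all genes). With all libraries and a log2 difference of at least 1 required beside the adjusted p, 24 were higher and 1 lower (19.9% and 24.4% of all genes). Left out 1 at a time, the members lower were 6 to 8. In the hypoxic libraries the median of the members was 0.55.

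Reversed values, none past the threshold in either fit unless stated, were those of MRPS18A in PC3 (-0.046 with total-count scaling, -0.015 with the offsets, -0.018 with offsets and block, -0.023 to 0.12 when 1 library was left out), MRPS36 in PC3 (0.073 with the offsets, 0.070 with offsets and block, 0.0066 without replicate 1, -0.099 to 0.026 when 1 library was left out), and, past the threshold in both fits, MRPS25 (0.49) and MRPS5 (0.42) between the lines with the offsets.

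The log2 ratio of large to small, hypoxia minus normoxia, was -0.02 in PC3 and 0.042 without MRPS6, with -0.04 to 0.00 when 1 library was left out, and -0.01 to 0.01 in HCT116. Between the lines it was 0.14 (0.15 by place, 0.11 without MRPS6, 0.14 to 0.15 leaving out 1 library). Median levels per kilobase moved with the length used. With median transcripts they were 74.9 (large) and 53.0 (small) in PC3 and 111.7 and 77.7 in HCT116, with merged exons 28.3, 23.1, 39.4 and 26.5, and with canonical transcripts 50.6, 39.0, 79.6 and 52.8. Leaving out 1 library gave 37.5 to 38.9, 28.0 to 30.4, 57.5 to 66.7 and 42.6 to 44.4.

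Apart from MRPS18B, whose 0 counts were not explained here, the lowest count of any member in any library was 793 (MRPL54). Replicate numbers, overlapping genes and the unknown strand setting limit what single genes show.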
